A study of Drosophila simulans and Drosophila melanogaster and Drosophila sechellia with 48 samples.

Results

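Gene expression in whole adult males of Drosophila simulans was compared with that in males of its close relative D. melanogaster. The members of the comparison were 32 of the 48 arrays of the series, chosen by their titles: the 3 arrays of D. melanogaster and 29 of the 30 arrays of D. simulans. The remaining groups of the series are 5 other species of the same subgroup. According to the paper, arrays of D. melanogaster and of D. simulans were run in earlier work with equal rearing conditions and array type, and the other species were added later. Array dates or batches within the earlier data are not given in the sources used here, so a batch between the arrays of both species was not tested.

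All flies were males 3 days after pupation, kept at 25 C under continuous light in vials of cornmeal medium with yeast, and each RNA sample came from 20 males knocked down with CO2. No mutation, transgene or drug is named for any group. The D. melanogaster samples pooled 10 isogenic lines of a wild population in even shares, after the lines had been crossed in a round robin, so 1 array shows the average of many genotypes. For D. simulans each array shows 1 cross between isogenic lines of the same locality, with 3 arrays for each of the 10 crosses 6X11, 11X36, 36X37, 37X43, 43X61, 61X77, 77X85, 85X99, 99X105 and 105X6, and neighbouring crosses have a parental line in common. The level of D. simulans is the equal mean of its 10 crosses. One array, replicate 3 of cross 37X43, was left out because it carried female transcripts: its yolk protein gene Yp1 had a normalized log2 signal of 15.48, against 5.10 to 6.35 in D. melanogaster and 4.38 to 8.84 in the other D. simulans arrays. Over the 18 yolk and eggshell genes measured, that array lay 3.09 above its cross in the median, while the other arrays deviated from their groups by -0.595 to 0.488. Genes of the male accessory gland had a list median of 10.3 to 11.1 in the D. melanogaster arrays and 8.42 to 9.76 in the D. simulans arrays kept. The array left out had 8.18, below all of these. Its deviation from its cross in this list was -0.54, against -0.426 to 0.674 in the other arrays. In testis and sperm genes the deviation was -0.936, against -0.481 to 0.473. In duct and bulb genes it was -0.351, within the -0.471 to 0.541 of the other arrays.

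The 2 species look almost alike as adults, but their males differ in genitalia, courtship signals and seminal fluid, and their hybrids are sterile or die. Genes with functions in male reproduction are known to diverge faster among fly species, in sequence and in expression, than genes used in all tissues. Immune peptides, detoxification enzymes and chemosensory genes form families that also gain and lose members between close relatives. The array behind these values was designed on the D. melanogaster genome, with a set of short probes per gene. A D. simulans transcript can differ in sequence from its probes, which can move its signal down or, through the correction for unspecific binding, up. For any single gene a difference in RNA and a difference in probe match therefore cannot be told apart.

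Replicate arrays of D. melanogaster had pairwise correlations across features of 0.858 to 0.887. Among the crosses these ran from 0.923 to 0.93 in 11X36 down to 0.814 to 0.851 in 6X11 and 0.777 to 0.851 in 99X105. The number of arrays limits the precision, and with 3 D. melanogaster arrays the median standard error of a difference was 0.371 on the log2 scale. Control probe sets for mouse and yeast genes, 8 in all, had means of 3.33 to 5.32 in D. melanogaster and of 3.94 to 6.01 in D. simulans. Signals in that range are those of probes with no fly transcript to bind, and a difference that reaches into it has no measured lower end.

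Over all features, 3452 of 12367 (27.9%) differed between the species at an adjusted p under 0.05 in limma, 1847 (14.9%) higher in D. simulans and 1605 (13%) higher in D. melanogaster. Differences in the 2 directions were not alike in size. Among those over 2 log2 units, 133 were higher in D. simulans and 458 in D. melanogaster, and over 3 log2 units the counts were 15 and 134. For 1100 features (8.89%) the arrays of the species did not overlap, with every D. simulans array above every D. melanogaster array in 325 (2.63%) and below in 775 (6.27%). All 10 crosses lay on 1 side of the D. melanogaster mean for 3306 of the 3452 (95.8%). The 3452 were selected by the difference of these crosses from that same mean, so a high share follows largely from the selection. The share over all features was not counted. In an F-test of the same fit 221 features (1.79%) varied among the crosses of D. simulans, and 106 of these also differed between the species. That test compares crosses of 2 or 3 arrays each, so its count cannot be set against the count between the species as a measure of variation. The count of differences was 2352 without replicate 2 of D. melanogaster, where 1224 were higher in D. simulans and 1128 in D. melanogaster. It was 4171 without crosses 6X11 and 99X105, an alternative chosen after the data were seen, and 3203 with the array of female transcripts kept.

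**Figure D1:**
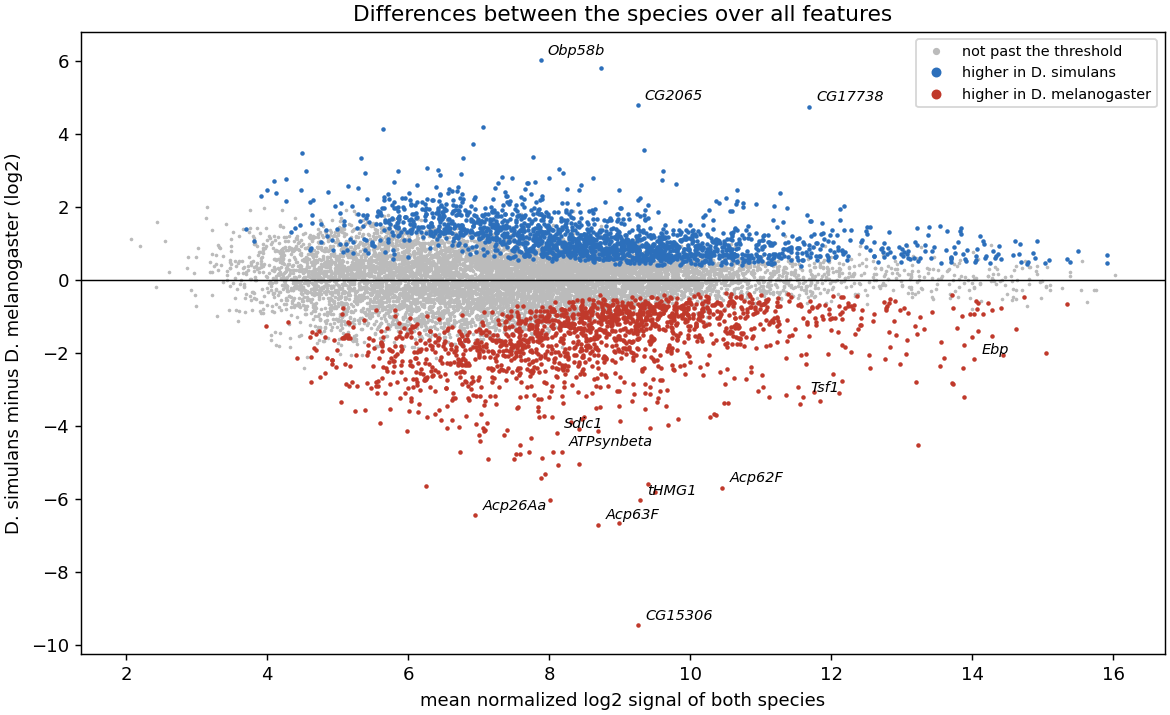
Difference between the species (D. simulans minus D. melanogaster, log2) against the mean normalized log2 signal of both, 1 point per feature, with those past an adjusted p of 0.05 in blue (higher in D. simulans) or red (higher in D. melanogaster). Points more than 3 log2 units from 0 lie mostly below the line, 134 against 15 above it, and CG15306 is the lowest of all.

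Differences were found at every level of signal, but fewer among dim features. Of the 3477 features under 7 log2 units in both species, 4.43% were higher in D. simulans and 3.05% in D. melanogaster, and of the 1053 with over 11 in the brighter species these shares were 28.6% and 26.2%. At 9 to 11 in the brighter species (3065 features) they were 23% and 22.9%. The shares of a list of bright genes are therefore best read beside these, not only beside those of all features. Of the 3452 differences, 623 had their lower species under the highest mean of the mouse and yeast controls. Among the other 2829, 1552 were higher in D. simulans and 1277 in D. melanogaster, with 55 and 251 of them over 2 log2 units, so the excess of large differences towards D. melanogaster was also found where both species stood above the controls.

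The match of the probes to other species moved with the differences. For 1609 features in the first part of chromosome arm 2L the supplementary tables give how many of the 14 probes of a set were dropped because they differ from D. yakuba, a more distant relative. Where at most 6 probes differed (55 features), 26 (47.3%) were higher in D. simulans and 1 (1.82%) in D. melanogaster, with a median difference of 0.544. At 7 to 9 probes (213 features) the counts were 60 and 12 with a median of 0.39, and at 10 to 12 (670 features) they were 96 and 57 with a median of 0.149. Where 13 or 14 probes differed (671 features), 56 (8.35%) were higher in D. simulans and 152 (22.7%) in D. melanogaster, with a median of -0.203. Differences over 2 log2 units towards D. melanogaster numbered 0, 3, 10 and 43 in these classes. The classes also differed in brightness, with median D. melanogaster levels of 9.16, 8.28, 7.97 and 7.85. The part of signal level in these counts was not tested. Probes that differ from D. yakuba are not the same as probes that differ from D. simulans, and the part of this in the difference of any gene was not tested. Chromosome arms were not analysed here.

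**Figure D2:**
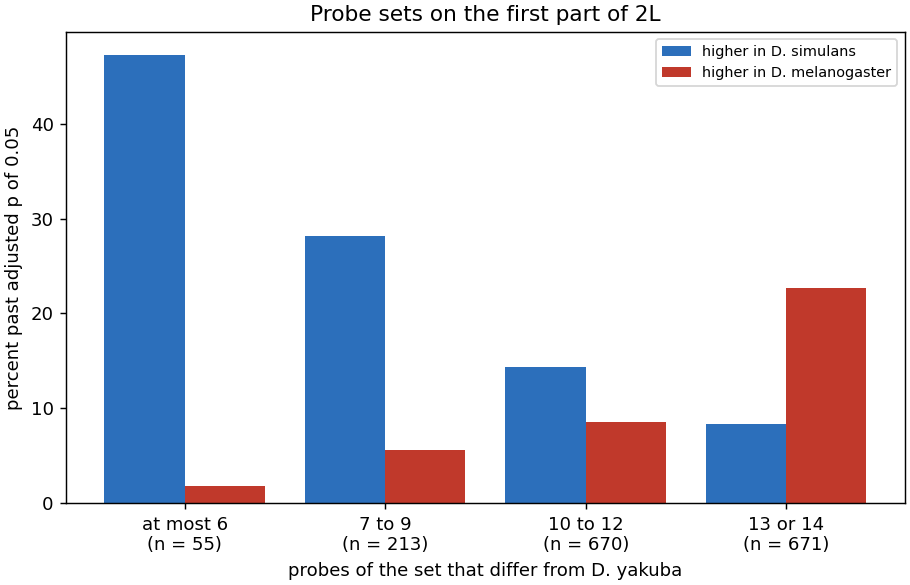
Share of features past an adjusted p of 0.05 in each direction (percent, y axis) by the number of probes of the set that differ from D. yakuba (x axis), for features in the first part of 2L. The blue bars (higher in D. simulans) go down from 47.3% to 8.35% and the red bars (higher in D. melanogaster) go up from 1.82% to 22.7%.

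Of named genes higher in D. simulans without overlap, Obp58b differed most. This gene codes for an odorant binding protein, one of the small secreted proteins that carry odorants and other ligands. Its log2 signals were 5.79, 3.89 and 4.96 in the D. melanogaster arrays, and 9.91 at the lowest, 11.02 at the median and 11.69 at the highest in D. simulans. Every D. simulans array was thus far above D. melanogaster, where the signal was at the level of the mouse and yeast controls. The difference was 6.00 ± 0.26 (SE), with an adjusted p of 3.89e-14 in limma. In the sister species of D. simulans, measured later and each in 1 line, Obp58b stood at 5.24 (D. mauritiana) and 4.56 (D. sechellia), close to D. melanogaster, while D. teissieri, D. yakuba and D. santomea had 8.69, 8.70 and 7.80.

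CG2065 and CG17738 followed. CG2065 had 6.64, 6.04 and 7.94 in D. melanogaster and 9.38, 11.78 and 12.75 as the lowest, median and highest of D. simulans, a difference of 4.77 ± 0.43 (adjusted p = 1.47e-08). CG17738 was bright in both species but more so in D. simulans, with 9.41, 9.44 and 9.11 against 13.04, 14.19 and 14.88, a difference of 4.74 ± 0.24 (adjusted p = 8.92e-13). The sister species D. sechellia also had a high CG17738 (13.51), while D. mauritiana had 10.73 and the remaining species had 8.30 to 9.10. CG31562 was 4.18 ± 0.32 higher in D. simulans (adjusted p = 1.25e-09), and its mean of 8.96 in D. mauritiana was like that of D. simulans (9.15), against 4.97 in D. melanogaster and 5.30 in D. sechellia.

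Or46a, an odorant receptor gene, gave the opposite layout, with D. melanogaster as the low species. Its signals of 5.34, 5.62 and 4.38 in D. melanogaster were below the 7.04, 8.45 and 9.22 of the lowest, median and highest D. simulans array, with a difference of 3.32 ± 0.27 (adjusted p = 3.47e-09), and the other 5 species had means of 8.23 to 8.86. GstD2, a glutathione S-transferase of the kind that detoxifies foreign compounds, read 7.59, 8.57 and 8.19 against 10.09, 11.20 and 11.80, a difference of 2.99 ± 0.25 (adjusted p = 4.44e-09). The remaining genes of the 12 highest were Ssl2 (3.73), CG4962 (3.55), CG13658 (3.36), CG42262 (2.91), CG42258 (2.81) and CG10208 (2.78). None of the 12 had D. simulans arrays that reached down to a D. melanogaster array, as the rule for naming them required.

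**Figure D3:**
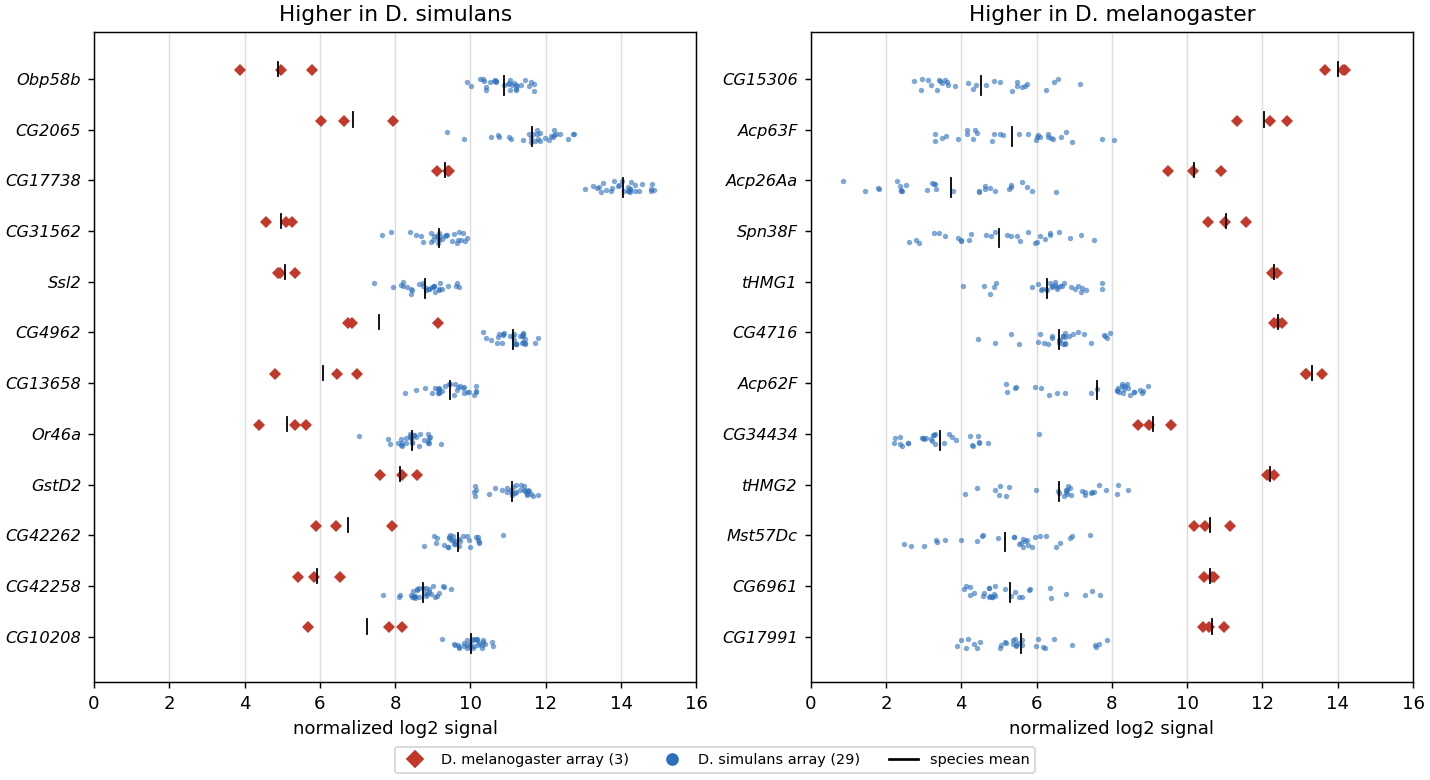
Normalized log2 signal (x axis) of each array for the 12 named genes with the highest and the 12 with the lowest difference, with red diamonds for the 3 D. melanogaster arrays, blue points for the 29 D. simulans arrays and black lines for species means. Obp58b arrays lie at 3.89 to 5.79 and 9.91 to 11.69, and CG15306 arrays at 13.66 to 14.20 and 2.75 to 7.16.

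In the other direction CG15306 stood apart, with 14.20, 14.13 and 13.66 in the D. melanogaster arrays and 2.75, 4.32 and 7.16 as the lowest, median and highest of D. simulans. The difference was -9.47 ± 0.64 (adjusted p = 1.82e-10), and the 5 other species, at 3.79 to 5.62, were also far below D. melanogaster. CG4716, CG34434, CG6961 and CG17991 were likewise higher in D. melanogaster than in each of the other 6 species, with D. melanogaster means of 12.42, 9.08, 10.60 and 10.66 and D. simulans means of 6.59, 3.43, 5.29 and 5.59.

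Genes of the testis were among the 12 lowest. tHMG1 and tHMG2 code for high mobility group proteins of the testis. tHMG1 read 12.40, 12.25 and 12.28 in D. melanogaster against 4.03, 6.48 and 7.74 in D. simulans, a difference of -6.04 ± 0.50 (adjusted p = 4.44e-09). tHMG2 had 12.12, 12.29 and 12.18 against 4.09, 6.80 and 8.42, a difference of -5.60 ± 0.58 (adjusted p = 1.53e-07). Both genes were at 6.31 to 9.26 in the other 5 species, so no other species reached the level of D. melanogaster.

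Genes of the accessory gland were mostly higher in D. melanogaster where they differed. The accessory gland of the male makes the seminal proteins that are passed to the female at mating and change her egg laying and receptivity. Of 27 such genes measured, 15 were higher in D. melanogaster (55.6%), 1 was higher in D. simulans and 11 did not pass. Of all features 13% were higher in D. melanogaster, and of those at 9 to 11 in the brighter species 22.9%. The median difference of the list was -1.24, against 0.08 over all features. In 11 of the 27 genes (40.7%, against 6.27% of all features) every D. melanogaster array lay above every D. simulans array. In RNA of whole flies, fewer cells of a type and less RNA per cell cannot be told apart. Neither can be told apart here from a poorer match of the probes, which was not tested.

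Acp26Aa is known as ovulin, which raises ovulation in the mated female. It read 9.48, 10.16 and 10.89 in D. melanogaster and 0.85, 3.33 and 6.51 as the lowest, median and highest of D. simulans, where its mean of 3.73 was in the range of the mouse and yeast controls. The difference was -6.45 ± 0.92 (adjusted p = 1.22e-05). Acp62F, a protease inhibitor of the seminal fluid, had 13.16, 13.59 and 13.16 against 5.19, 8.20 and 8.97, a difference of -5.70 ± 0.58 (adjusted p = 1.21e-07). Acp63F was at 11.31, 12.19 and 12.66 against 3.30, 5.54 and 8.05 (-6.70 ± 0.74), and Spn38F, a serpin or serine protease inhibitor, was at 10.56, 11.00 and 11.56 against 2.61, 5.22 and 7.52 (-6.05 ± 0.73). For Mst57Dc the arrays of D. melanogaster had 10.18, 10.47 and 11.14 and those of D. simulans 2.47, 5.60 and 7.43 (-5.43 ± 0.73). None of these 5 genes varied among the crosses at an adjusted p under 0.05. The other 5 species also read below D. melanogaster in each of them. Their means were 2.21 to 5.52 for Acp26Aa, 5.22 to 8.45 for Acp62F and 4.14 to 6.52 for Acp63F. For Spn38F they were 3.51 to 7.22, and for Mst57Dc 3.90 to 8.47.

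The list was not uniform. Acp36DE, which is needed for sperm storage, and Acp29AB, a lectin with a part in it, had differences of -3.04 and -3.30, and the serpins Spn28F and Spn77Bc had -4.15 and -2.07. Mst57Da was 0.46 higher in D. simulans. SP, the sex peptide that lowers the receptivity of the mated female, had means of 13.6 and 14.1 in D. melanogaster and D. simulans and did not pass, nor did Obp56g with a difference of 0.03. Several genes whose proteins act with the sex peptide in the female, aqrs, antr, intr, CG9997, CG17575, lectin-46Ca and lectin-46Cb, did not pass either, with differences from -1.36 (intr) to 0.48 (CG17575).

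Ebp and EbpII, secreted proteins of the ejaculatory bulb that contribute to the mating plug, were higher in D. melanogaster. Of 5 duct and bulb genes 3 were higher in D. melanogaster (60%) and 1 in D. simulans (20%). Over all features these shares were 13% and 14.9%, and over those above 11 in the brighter species 26.2% and 28.6%. Ebp had 15.22, 15.31 and 14.84 in D. melanogaster and 12.51, 12.87 and 13.57 in D. simulans (-2.18 ± 0.19, adjusted p = 1.29e-08), and in the more distant D. yakuba, D. santomea and D. teissieri it was at 6.09 to 6.67. EbpII differed by -2.85 ± 0.31 (adjusted p = 2.97e-07), and EbpIII had means of 14.6 in both species. Anp, the antibacterial peptide andropin of the ejaculatory duct, differed by -1.56 ± 0.27 (adjusted p = 0.000134). Its arrays overlapped only through replicate 3 of cross 99X105, at 15.01. Gld, the glucose dehydrogenase of the duct, went the other way, with 9.55, 9.08 and 9.49 in D. melanogaster below the 9.68, 11.49 and 12.16 of D. simulans (2.09 ± 0.23, adjusted p = 3.52e-07).

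Of 33 testis and sperm genes, 11 were higher in D. melanogaster (33.3%) and 4 in D. simulans (12.1%), with a median of -0.306. Of all features 13% and 14.9% were, and of those at 9 to 11 in the brighter species 22.9% and 23%. betaTub85D, the beta tubulin of the male germ line, read 12.82, 12.71 and 12.62 in D. melanogaster and 7.90, 9.69 and 10.38 in D. simulans, a difference of -3.20 ± 0.16 (adjusted p = 5.83e-13). It also varied among the crosses (adjusted p = 3.80e-05, limma F-test), from 8.17 in 61X77 to 10.26 in 99X105, yet no cross came near D. melanogaster. dj (don juan), a protein of the sperm tail, had 11.20, 11.68 and 12.14 against 8.49, 9.17 and 9.96 (-2.52 ± 0.20), and Mst77F, a histone-like protein of sperm chromatin, had 11.04, 9.64 and 11.13 against 7.37, 8.43 and 9.26 (-2.22 ± 0.32). Neither gene's arrays overlapped between the species.

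Many other sperm genes did not pass the test. The 6 genes of the Mst84D, Mst87F and Mst98Ca group that code for cysteine-rich sperm tail proteins had differences from -0.49 (Mst84Db) to 0.38 (Mst84Dd), while Mst98Cb had -2.07. bol (boule), a translation regulator needed for meiosis in the male, was higher in D. simulans by 0.90, and Tektin-A by 0.88. Of the spermatocyte regulators that drive the testis programme, topi was higher in D. melanogaster (-1.62), and can, sa, mia, nht, aly, comr, tomb and achi, all under 7 in D. melanogaster, did not pass.

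Sdic1 codes for a dynein intermediate chain of sperm and is known as a gene that arose on the D. melanogaster lineage by fusion of sw and AnxB10. It read 10.09, 10.69 and 9.85 in D. melanogaster and 4.71, 5.77 and 7.63 in D. simulans (-4.20 ± 0.47, adjusted p = 5.08e-07), and means in the other 5 species were 6.07 to 7.45. Its parent sw, whose transcript is similar and may share signal with Sdic1 on the array, differed by -1.43 and did not pass.

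**Figure D4:**
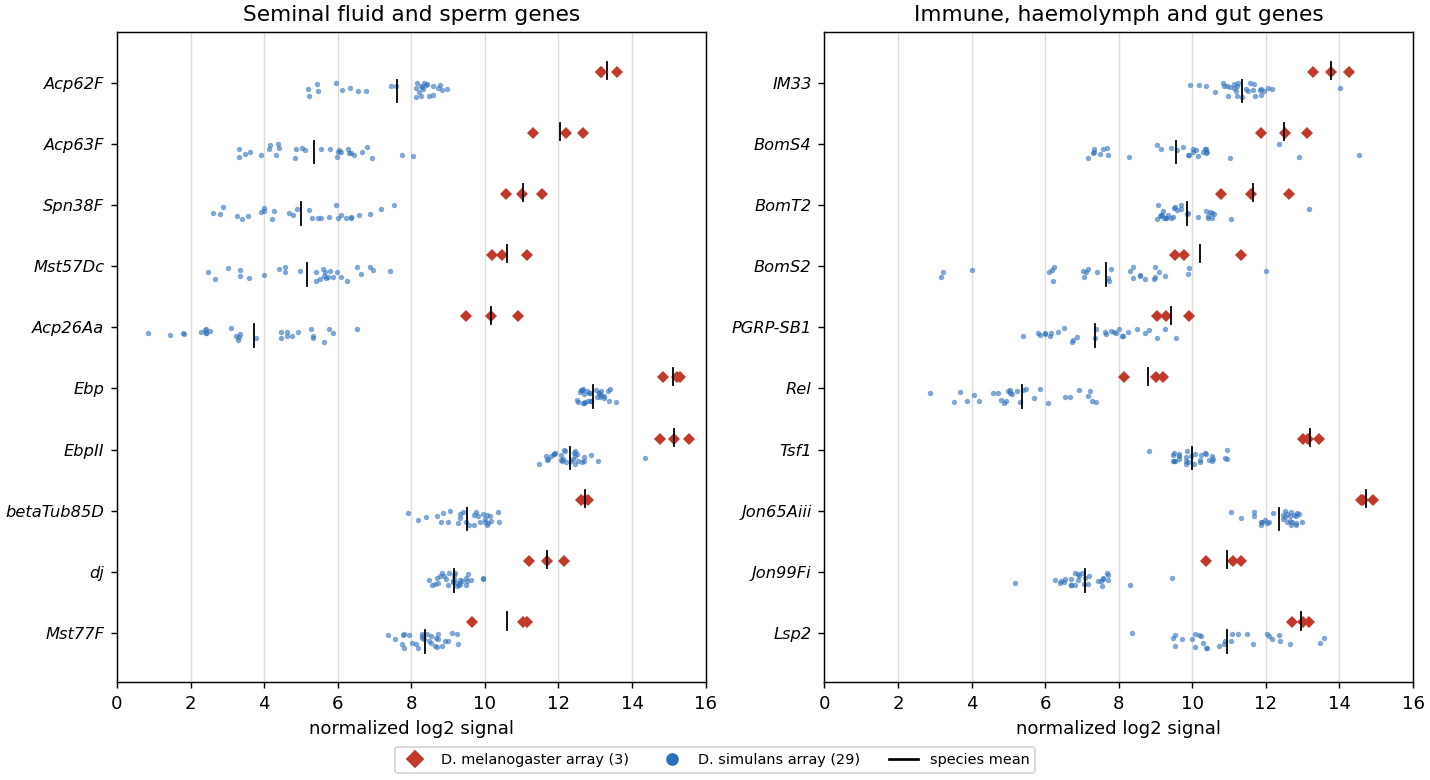
Normalized log2 signal (x axis) of each array for 10 seminal fluid and sperm genes and 10 immune, haemolymph and gut genes, with red diamonds for D. melanogaster, blue points for D. simulans and black lines for species means. The genes shown were picked for large differences. The 10 on the left leave a gap between the species, with D. melanogaster above. In all, 11 of 27 accessory gland (40.7%) and 7 of 33 testis genes (21.2%) did so, against 6.27% of all features. In BomS4, BomT2, BomS2, IM33, PGRP-SB1 and Lsp2 some D. simulans arrays reach the D. melanogaster arrays, in BomS4 and BomS2 every array of cross 99X105. In IM33 replicate 3 of cross 99X105, at 14.02, is the only one.

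Of 14 immune peptides, 4 of them under 7 in both species, 7 were higher in D. melanogaster (50%, against 13% of all features) and none in D. simulans. Among the crosses 3 varied (21.4%, against 1.79% of all features). Such peptides are made by the fat body and secreted on infection, under the Toll and Imd pathways. The median difference was -0.905, and in no gene were the arrays of the species apart. BomS4, a bomanin induced through Toll, had 11.86, 12.53 and 13.11 in D. melanogaster and 7.17, 9.87 and 14.52 in D. simulans, a difference of -2.95 ± 0.33 (adjusted p = 3.87e-07). Its cross means ran from 7.36 in 61X77 to 13.25 in 99X105 (adjusted p = 3.61e-07 over the crosses), and 99X105 was above the D. melanogaster mean of 12.50. BomS2 also varied among the crosses (adjusted p = 0.00344), from 4.47 in 61X77 to 10.61 in 99X105, and differed between the species by -2.55 ± 0.62 (adjusted p = 0.00347), a call that did not hold without replicate 3 of D. melanogaster. Without cross 99X105 the differences were -3.36 for BomS4 and -2.88 for BomS2.

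IM33 differed by -2.41 ± 0.37 (adjusted p = 2.68e-05) and BomT2 by -1.81 ± 0.37 (adjusted p = 0.000637), and Drs, the antifungal peptide drosomycin, by -1.61. Mtk, CecB, Def, AttD and DptB, whose genes are induced by infection, did not pass and were at 7.9 or less in D. melanogaster. Whether flies of either species carried an infection was not measured.

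Of 23 upstream genes of the same pathways 7 were higher in D. melanogaster (30.4%) and 3 in D. simulans (13%), against 13% and 14.9% of all features. Rel, the NF-kappaB factor of the Imd pathway, read 9.01, 8.15 and 9.20 in D. melanogaster against 2.87, 5.11 and 7.39 in D. simulans (-3.43 ± 0.74, adjusted p = 0.0012), and its arrays did not overlap. PGRP-SB1, a peptidoglycan recognition protein, differed by -2.05 ± 0.49 and spz, the ligand of Toll, by -1.56 ± 0.31. Of the Toll pathway, the transcription factor dl, its inhibitor cact and the adaptor Myd88 were higher in D. simulans by 1.17, 0.68 and 0.95. The count of 7 was 4 without replicate 1 of D. melanogaster, and the count of 3 ran from 1 without its replicate 2 to 7 without crosses 6X11 and 99X105. Among 7 lysozymes, which digest bacterial walls in the gut, 2 were higher in D. simulans (28.6%) and none was lower. Of all features 14.9% were higher in D. simulans, and of those over 11 in the brighter species 28.6%. The 2 lysozymes were LysS (1.91 ± 0.41, adjusted p = 0.00119) and LysC (1.45 ± 0.52, adjusted p = 0.0383). The probe set of LysC may read several lysozyme genes, and its call did not hold without any 1 of the D. melanogaster arrays.

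The fat body also makes storage and transport proteins of the haemolymph. Of 18 fat body and haemolymph genes 6 were higher in D. melanogaster (33.3%) and 1 in D. simulans (5.56%). Over all features these shares were 13% and 14.9%, and over those at 9 to 11 in the brighter species 22.9% and 23%. Tsf1, the iron carrier transferrin, was bright, with 13.16, 13.45 and 13.02 in D. melanogaster and 8.82, 9.95 and 10.95 in D. simulans (-3.21 ± 0.22, adjusted p = 2.44e-10), and the highest mean among the other 5 species was 11.37 (D. yakuba). Lsp2, a storage protein of larval serum, differed by -2.03 ± 0.42 (adjusted p = 0.000875) and varied among the crosses (adjusted p = 0.00728) from 9.39 in 99X105 to 12.39 in 77X85. Idgf6, a growth factor of the chitinase-like family, differed by -1.75 ± 0.20, while PPO1, a prophenoloxidase of melanin formation, was higher in D. simulans by 1.61 ± 0.52, a call that did not hold without replicate 1 or 2 of D. melanogaster.

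Of 35 digestive enzymes 12 were higher in D. melanogaster (34.3%) and 4 in D. simulans (11.4%). Over all features these shares were 13% and 14.9%, and over those at 9 to 11 in the brighter species 22.9% and 23%. The median difference of the list was -0.565. The Jonah genes code for serine proteases of the gut. Jon65Aiii had 14.64, 14.59 and 14.92 in D. melanogaster and 11.05, 12.53 and 12.98 in D. simulans (-2.35 ± 0.26, adjusted p = 4.41e-07), and Jon99Fi had 11.11, 10.38 and 11.32 against 5.19, 7.01 and 9.45 (-3.86 ± 0.39, adjusted p = 8.81e-08). Jon25Bi and Jon25Bii were higher in D. simulans by 2.01 and 2.03, so the family did not move as 1. The maltases Mal-A1, Mal-A2, Mal-A6, Mal-A7 and Mal-A8, which split sugars, were higher in D. melanogaster, by -0.84 (Mal-A1) to -2.28 (Mal-A2), as were the lipase mag (-2.19) and the amylase Amy-d (-1.33), and Amyrel was higher in D. simulans. Members of the Jonah and amylase families are similar in sequence and may share signal on the array.

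**Figure D5:**
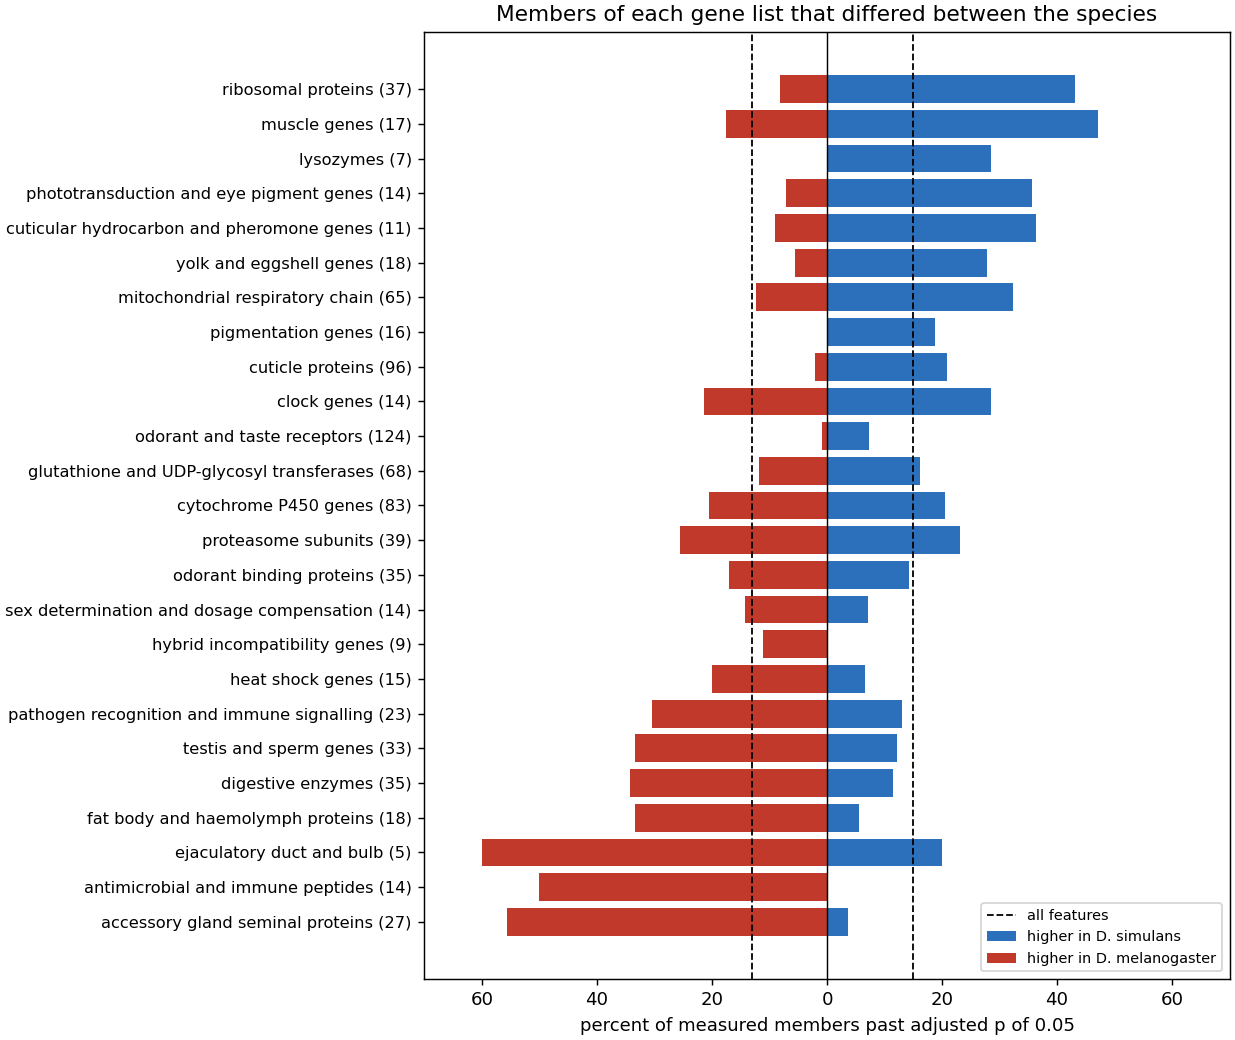
Percent of the measured members of each gene list (number in brackets) past an adjusted p of 0.05, to the right for higher in D. simulans and to the left for higher in D. melanogaster. Dashed lines mark the share over all features, 14.9% and 13%, and accessory gland proteins reach 55.6% to the left and muscle genes 47.1% to the right.

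Other lists had more members on the side of D. simulans. Of 37 ribosomal protein genes, 16 were higher in D. simulans (43.2%, against 14.9% of all features) and 3 in D. melanogaster (8.11%), with a median of 0.229. This list was bright, with median levels of 13.2 in D. melanogaster and 13.9 in D. simulans. Of all features over 11 in the brighter species, 28.6% were higher in D. simulans and 26.2% in D. melanogaster. The part of signal level or probe match in these counts was not tested. RpL39 read 12.23, 12.44 and 13.33 in D. melanogaster and 13.89, 14.08 and 15.16 in D. simulans (1.46 ± 0.18, adjusted p = 2.56e-06), and RpS27A differed by 1.43 ± 0.19, both without overlap. In 10 ribosomal genes every D. simulans array was the higher, and in 0 every D. melanogaster array, where over all features 2.63% and 6.27% did so. RpS29 was lower in D. simulans (-1.51 ± 0.46), a call that did not hold without replicate 2 or 3 of D. melanogaster.

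Of 17 muscle genes 8 were higher in D. simulans (47.1%) and 3 in D. melanogaster (17.6%). Of all features 14.9% and 13% were, and of those over 11 in the brighter species 28.6% and 26.2%. TpnC73F, a calcium sensor of the thin filament, had 7.63, 6.67 and 7.65 against 8.56, 9.14 and 9.83 (1.85 ± 0.19, adjusted p = 1.21e-07), and Tm2, a tropomyosin, differed by 1.62 ± 0.26. Another troponin C, TpnC4, which is used in flight muscle, was lower in D. simulans (-1.96 ± 0.43), as was bt, which codes for the giant protein projectin (-2.16 ± 0.22). Different members of the troponin C family were thus higher in each species.

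Among 65 subunits of the mitochondrial respiratory chain, 21 were higher in D. simulans (32.3%) and 8 in D. melanogaster (12.3%), with a median of 0.196. The first count was 11 without replicate 1 and 12 without replicate 2 of D. melanogaster, and the second was 5 without replicate 3. Over all features the 2 shares were 14.9% and 13%, and over features above 11 in the brighter species 28.6% and 26.2%. The list was bright, with median levels of 12.4 in D. melanogaster and 12.5 in D. simulans. Its share higher in D. simulans was thus near that of bright features. The catalytic subunit ATPsynbeta was the exception in size, at 9.89, 10.46 and 11.25 in D. melanogaster and 4.22, 5.99 and 6.87 in D. simulans (-4.71 ± 0.38, adjusted p = 2.45e-09). All 5 other species had means of 5.16 to 6.23 for it. The D. simulans mean of 5.83 was within the range of the mouse and yeast controls, though every respiring cell uses the gene. ATPsynC differed by -2.16 ± 0.16 (adjusted p = 7.15e-10), with 13.85, 13.68 and 13.99 against 11.11, 11.64 and 12.43.

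The proteasome degrades tagged proteins, and several of its subunits have paralogs that are expressed in the testis. Of 39 genes, 10 were higher in D. melanogaster (25.6%) and 9 in D. simulans (23.1%). Over all features these shares were 13% and 14.9%, and over those at 9 to 11 in the brighter species 22.9% and 23%. The list had median levels of 9.94 in D. melanogaster and 9.95 in D. simulans, so its shares were near those of its level. The 3 proteasome genes with the largest differences were Prosbeta4R1 (-2.47 ± 0.60), Prosalpha6T (-1.93 ± 0.17) and Prosbeta5R1 (-1.43 ± 0.21), paralogs known from the testis. In all 3 every D. melanogaster array was the higher. Rpn12R, another paralog, was higher in D. simulans (1.38 ± 0.20). The counts were 4 and 5 without replicate 1 of D. melanogaster. Hsp60C, a mitochondrial chaperone paralog needed in sperm formation, had 11.85, 12.06 and 11.86 against 8.62, 9.06 and 9.75 (-2.86 ± 0.16, adjusted p = 2.91e-12), and Hsp60B, another such paralog, differed by -1.11 ± 0.19, while the general form Hsp60A did not pass (-0.42). Of 15 heat shock genes 3 were higher in D. melanogaster (20%) and 1 in D. simulans (6.67%). Over all features these shares were 13% and 14.9%, and over those at 9 to 11 in the brighter species 22.9% and 23%. The call of Hsp27 (-0.82) did not hold in 27 of the alternative settings.

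Cytochrome P450 enzymes oxidize hormones, plant compounds and insecticides. Of 83 P450 genes 17 were higher in each species (20.5%, against 14.9% and 13% of all features), and 12 varied among the crosses of D. simulans (14.5%, against 1.79% of all features). Both counts of 17 were 11 without 1 array, that in D. simulans without replicate 2 and that in D. melanogaster without replicate 3 of D. melanogaster. Cyp6a21 had 8.39, 8.23 and 8.82 in D. melanogaster and 9.80, 11.13 and 11.91 in D. simulans (2.63 ± 0.17, adjusted p = 6.96e-11), and its neighbour in name Cyp6a9 had 10.59, 11.07 and 10.84 against 7.07, 8.15 and 8.97 (-2.72 ± 0.25, adjusted p = 2.77e-08). Cyp4e3 was 2.72 ± 0.35 higher in D. simulans, at 10.96, where the next species, D. melanogaster, had a mean of 8.24. Cyp12d1-d was lower (-3.46 ± 0.33), but D. melanogaster carries a near-identical copy, Cyp12d1-p, which its probes may also read. Cyp6g1, known for its part in resistance to DDT, differed by -2.15. Of 68 glutathione and UDP-glycosyl transferases 11 were higher in D. simulans (16.2%) and 8 in D. melanogaster (11.8%), shares near those of all features, among them GstE2 (1.85 ± 0.26) and Ugt37B1 (-2.28 ± 0.59), counts that were 7 without replicate 2 and 4 without replicate 3 of D. melanogaster.

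Odorant binding proteins held some of the larger differences of the comparison. Of 35 genes 5 were higher in D. simulans (14.3%) and 6 in D. melanogaster (17.1%), shares near those of all features. Besides Obp58b, Obp56h had 3.20, 5.73 and 5.81 in D. melanogaster against 7.15, 7.95 and 9.17 (3.01 ± 0.38, adjusted p = 2.64e-06), and was at 6.25 to 7.71 in the other 5 species. In the same gene cluster Obp56a went the other way, with 9.84, 9.75 and 9.55 against 4.99, 7.44 and 8.83 (-2.50 ± 0.47, adjusted p = 0.000306), and Obp57c had 8.80, 9.48 and 10.21 against 5.29, 6.58 and 7.65 (-2.91 ± 0.37, adjusted p = 2.45e-06). Of 124 odorant and taste receptor genes 108 were under 7 in both species, and 9 were higher in D. simulans (7.26%) and 1 in D. melanogaster (0.806%). Of all features 14.9% and 13% were, and of those under 7 in both species 4.43% and 3.05%.

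Of 14 clock genes 4 were higher in D. simulans (28.6%) and 3 in D. melanogaster (21.4%). Over all features these shares were 14.9% and 13%, and over those at 9 to 11 in the brighter species 23% and 22.9%. In the clock of the fly, tim codes for the partner of PER in the complex that represses its own transcription, and vri for a repressor of Clk. tim had 10.06, 10.30 and 10.80 in D. melanogaster and 11.01, 12.38 and 12.72 in D. simulans (1.97 ± 0.20, adjusted p = 1.45e-07). vri had 10.76, 10.89 and 11.26 against 5.46, 8.34 and 9.91 (-2.74 ± 0.34, adjusted p = 2.09e-06), and was at 8.05 to 8.70 in the other 5 species. per, Clk and cry did not pass, with differences of 0.77, -0.48 and 0.08. Flies were kept in continuous light, and the hour of collection is not given in the sources used here. In the eye, the channels trpl and trp, their scaffold inaD and the arrestin Arr2 were higher in D. simulans by 1.09, 0.84, 0.60 and 0.49, and the arrestin Arr1 was lower (-0.89 ± 0.19). The eye list held 5 of 14 genes higher in D. simulans (35.7%, against 14.9% of all features), a count of 2 without replicate 3 of D. melanogaster. Of features at 9 to 11 in the brighter species 23% were higher in D. simulans.

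Males of the 2 species carry similar cuticular hydrocarbons, which act as pheromones. Of 11 genes of this pathway 4 were higher in D. simulans (36.4%) and 1 in D. melanogaster (9.09%). Over all features these shares were 14.9% and 13%, and over those above 11 in the brighter species 28.6% and 26.2%. The 4 genes were the fatty acid enzymes FASN1 (0.65), FASN2 (1.04 ± 0.16, adjusted p = 3.92e-05) and ACC (0.79 ± 0.17) and the elongase eloF (1.46 ± 0.50, adjusted p = 0.0309). The call of eloF did not hold without replicate 1 or 2 of D. melanogaster. bond, another elongase, had 10.85, 10.76 and 10.88 in D. melanogaster and 8.58, 9.29 and 10.17 in D. simulans (-1.53 ± 0.21, adjusted p = 6.76e-06). The desaturases Desat1, Desat2 and Fad2 did not pass. Of 96 cuticle protein genes, 49 of them under 7 in both species, 20 were higher in D. simulans (20.8%) and 2 in D. melanogaster (2.08%). Over all features these shares were 14.9% and 13%. Cpr5C differed by 2.13 ± 0.41 and Cpr67Fb by -1.90 ± 0.39. Of 16 pigmentation genes 3 were higher in D. simulans (18.8%, against 14.9% of all features). Of these bab1, a repressor of pigment in the abdomen, had no overlap between the species, with 7.26, 8.68 and 8.22 against 8.81, 9.35 and 9.89 (1.30 ± 0.20, adjusted p = 3.45e-05).

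Of 14 genes that set sex or compensate the single X of the male, 1 was higher in D. simulans (7.14%) and 2 in D. melanogaster (14.3%), against 14.9% and 13% of all features. Sxl was higher in D. simulans (1.16 ± 0.35, adjusted p = 0.015), tra2 (-1.72 ± 0.52, adjusted p = 0.0143) and msl-2 (-1.21 ± 0.45, adjusted p = 0.0456) were lower, and 11 did not pass, with a median of -0.0189. The calls of Sxl and tra2 did not hold without replicate 1 of D. melanogaster, and that of msl-2 was lost in 30 alternative settings. Of 9 genes known from hybrid sterility or death, or close to them in function, Nup160 was lower in D. simulans (-1.66 ± 0.59, adjusted p = 0.039), a call lost without any 1 of the D. melanogaster arrays. Hmr and Lhr, the pair behind the death of hybrid males, did not pass, with differences of -0.64 and -0.72. Of 18 yolk and eggshell genes, which mark females, 5 were higher in D. simulans (27.8%, against 14.9% of all features) and 1 in D. melanogaster (5.56%, against 13%). The first count was 1 without replicate 3 of D. melanogaster and 2 with the array of female transcripts kept. The list median of each array was 6.15 to 6.54 in D. melanogaster and 6.14 to 7.44 in D. simulans, and Yp2, at 2.01 ± 0.48, had overlapping arrays. The 4 metallothionein genes did not pass.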

How the data were processed

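Signals of 48 Affymetrix Drosophila Genome 1.0 arrays were analysed. The deposited values are MAS5 signals, an intensity per probe set that the authors put on a linear scale with a trimmed mean of 500 on every array (2% removed at each end). Loess smoothing and a mask against probes mismatched in D. yakuba are described in the paper. The table holds all 14010 probe sets without the mask, and whether it includes the smoothing is not stated. An array has no read depth, so precision is set by how many arrays there are.

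Values under 1 were set to 1 (19 values in the 32 arrays), log2 was taken (array medians 7.58 to 8.02) and the 48 arrays were quantile normalized. Of the probe sets, 12444 carry 1 gene symbol, 327 several and 1239 none, and 44 are controls. One probe set, the brightest, stood for each of 1209 genes that have several, and 12367 features were tested, 10844 of them named by a gene. D. simulans (equal mean of crosses) was compared with D. melanogaster, two-sided, by lmFit and eBayes of limma 3.58.1 (R 4.3.3) over 11 groups, with Benjamini-Hochberg adjustment over all features. The error is the spread of arrays within groups. The paper calls the D. simulans arrays of a cross replicates without saying that they are separate cultures, so p-values measure the spread between these samples, which may be technical. On simulated data the fit recovered 69 of 100 features changed by 2 log2 units and 23 of 100 changed by 1, with 8 false calls. The simulation changed 200 of 12367 features, gave all crosses 1 mean and used normal noise. The data held far more calls (3452), on which the adjusted threshold depends, so these rates need not hold there.

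Members and the 27 gene lists were chosen with earlier results of these data known. Genes were named by rule: of 919 named features past the threshold, without overlap and with a mean of at least 8 in the higher species, the 12 highest and the 12 lowest, and up to 4 members per list with the largest differences past the threshold. Other list members are named to show which did and did not pass. Lists are described by counts and medians, with no set test. The alternatives were other scalings, floors, filters, error models, and each array or cross left out. Figures were drawn with matplotlib 3.10.9.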

Additional observations from a re-analysis of the deposited data

Results flagged for a closer look

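For 9 of the 114 genes tested in this way, 1 cross of D. simulans lay apart from the other 9 by Dixon's criterion, which chance meets in about 1 of 20 groups. Cross 99X105, whose replicate arrays were the least alike, was high in BomS4 (13.25, against 10.3 in the next cross), BomT2 (11.61 against 10.43) and RpL39 (14.53 against 14.19), and low in ple (8.256 against 8.852). Cross 6X11 was low in tim (11.92 against 12.26), lark (7.516 against 8.412) and RpLP0-like (7.036 against 8.258). Several of these means leaned on 1 array. In 6X11 the arrays read 12.41, 12.35 and 11.01 for tim and 7.48, 8.06 and 5.56 for RpLP0-like. In 99X105 they read 14.07, 14.36 and 15.16 for RpL39 and 7.43, 8.88 and 8.46 for ple. By the F-test of limma, tim did not vary among the crosses (adjusted p = 0.824). Or46a was low in cross 85X99 (7.768 against 8.364) and tHMG1 in cross 37X43 (4.816 against 5.893). In the array left out of the comparison, replicate 3 of cross 37X43, yolk and eggshell genes lay 3.09 log2 units above the other arrays of the cross in the median.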

How the results depend on the processing

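The count of differences between the species, 3452, stayed within 1.5 times under every alternative run, but that higher in D. simulans, 1847, did not without replicate 2 of D. melanogaster. With single arrays or crosses left out the count ran from 2352 (without replicate 2 of D. melanogaster) to 3844 (without cross 99X105). At the same settings 1224 to 2114 were higher in D. simulans and 1128 to 1730 in D. melanogaster. Without replicate 3 of cross 99X105 alone the count of differences was 3804, near that without the whole cross. It was 2417 in a fit over all 16 groups and 3084 with the cross as a random block. With cross means as replicates it was 4447, and without crosses 6X11 and 99X105 4171. Of the 2417, 2402 were among the 3452. With the replicate number as a block 3419 passed, 1818 higher in D. simulans and 1601 in D. melanogaster. Deviations of samples with the same number had a mean correlation of 0.00363, and 15 of 30 samples, not all, resembled their own number best. The labels give no shared batch for a number, so the samples were not treated as paired. Other scalings moved the share of calls higher in D. melanogaster from 46.5% to 43.4% (common median) or 49.4% (as deposited). The methods' plain linear model gave 4719 at p under 0.05, 1911 at p under 0.001 and 3512 after adjustment.

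The count of features that varied among crosses, 221, was 341 when only features with a mean of at least 7 were tested. It was 67 in the fit over 16 groups. The causes of these 2 changes were not tested. With single arrays left out it was 147 (without replicate 1 of cross 37X43) to 326 (without replicate 2 of cross 6X11). By probes that differ from D. yakuba, the median was 0.644 at 6 or fewer under the common median, and 0.0896 at 10 to 12 and -0.278 at 13 or 14 for signals as deposited, all in the direction given in the report. MtnA, which did not pass, turned from -0.16 to 0.048 under the common median (adjusted p = 0.924, limma).

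Of the named genes, calls were lost most often for Cp7Fc (32 settings), msl-2 (30), Hsp27 (27) and yellow-e3 (17), all with an adjusted p over 0.04. Dim features limit the precision, since signals near those of the mouse and yeast controls have no measured lower end.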
